A study of Solanum lycopersicum with 84 samples.

Results

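A set of 131 genes of tomato (Solanum lycopersicum) is described here. Their transcripts were higher in nitrogen-starved plants than in plants supplied with nitrate, in both roots and shoots. Members were chosen from the counts by their level in CPM, the count of a gene per 1000000 counted reads of its library. In each organ separately, the mean CPM without nitrate (−N) had to be at least 3 times the mean CPM with nitrate (+N), every −N library had to lie above every +N library, and the −N mean had to be at least 2 CPM. Of 34075 genes in the table, 16627 reached that −N level in both organs, and 135 of those (0.812%) met all conditions. The selection leaves out 6 listed genes, of which 4 met the conditions, and this gave the 131 genes. The fall after nitrate in either organ is therefore what chose the genes, so its values are given as a description and were not tested. The differences between roots and shoots were not used in the choice and were tested.

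Plants of cultivar M82 were grown in hydroponics, were 22 days old when moved to N-free medium, and stayed there for 4 days. The −N groups then received fresh N-free medium, with 2.8 mM chloride in place of nitrate, and the +N groups received medium with 2.8 mM nitrate, so that all plants had been starved and the groups differed in the last 6 h only. Roots and shoots were harvested after these 6 h, which gave root −N, root +N, shoot −N and shoot +N, with 3 libraries of poly(A) RNA in each group and 12 in all. All groups were sampled at the same time and none before nitrate, so a fall here means a lower level in +N than in −N. Tissue of 4 plants was pooled for a library, and whole organs were sampled, so that fewer cells of a type and less RNA per cell cannot be told apart.

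Plants that run short of nitrogen are known to retrieve it from their own proteins, nucleic acids and chlorophyll, and to raise transporters for nitrogen forms other than nitrate. Vacuolar proteases, ribonucleases and amine oxidases release amino acids, purines and ammonium, and permeases carry these, with urea, ureides and peptides, across membranes and between organs. Nitrate is both a nutrient and a signal, and transcripts of many starvation genes are known to fall within hours of its return.

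Libraries held 17472760 to 21901432 counted reads. Replicates differed by more than counting noise (chi-square per degree of freedom 2.5 to 7.2), so none was a repeat deposit of another. The organ labels were checked with genes of the photosystems and Rubisco small subunit (19 genes) and with root genes for the Casparian strip, nitrate and iron uptake (12 genes). The shoot genes summed to 4280 to 6860 CPM in shoots and 52.1 to 75.5 CPM in roots, whereas the root genes summed to 1150 to 1640 CPM in roots and 92.6 to 215 CPM in shoots. In −N, 16 of the 17 tested shoot genes were called higher in shoots and 1 higher in roots, and 8 of the 12 root genes were called higher in roots and 2 higher in shoots.

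Together the 131 genes took 0.949, 0.914 and 0.88% of the counted reads in the root −N libraries and 0.19, 0.196 and 0.184% in root +N. In shoots they took 1.54, 1.42 and 1.41% in −N and 0.265, 0.297 and 0.281% in +N. The level of single members spanned a wide range, with −N means of 2.29 to 1226 CPM in roots (median 18.4) and 2.04 to 2008 CPM in shoots (median 28.9). After nitrate, 27 members had a mean below 1 CPM in roots and 19 in shoots, and no member was at 0 counts in any library. The median coefficient of variation between replicates of a member was 10.7% in root −N, 14.7% in root +N, 8.28% in shoot −N and 11.7% in shoot +N. The largest over the members was 43.6% in root −N, 103% in root +N, 34.7% in shoot −N and 136% in shoot +N.

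**Figure D1:**
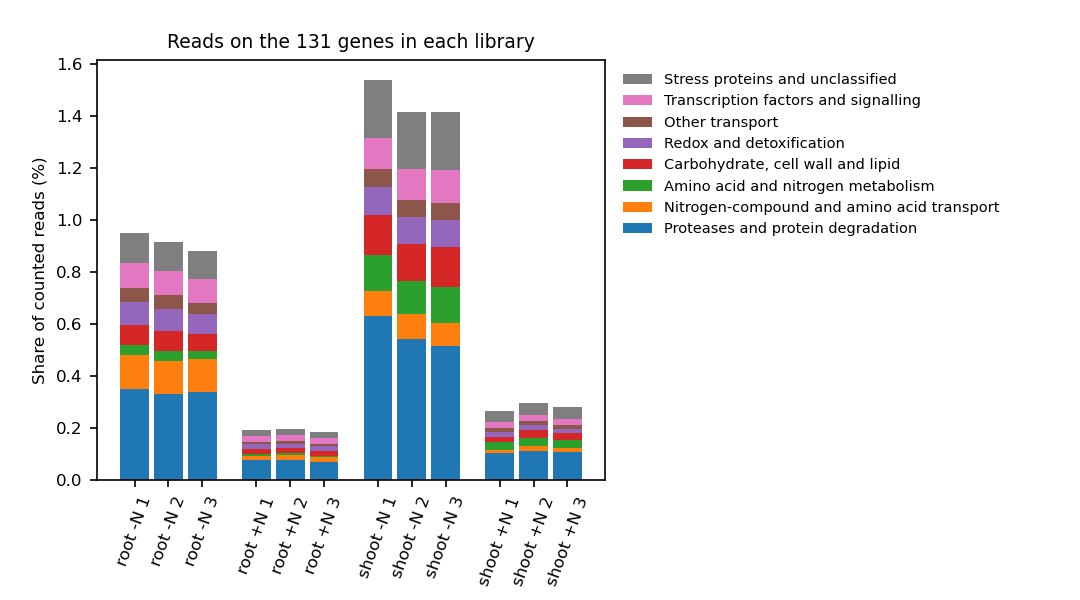
Share of counted reads (%, linear axis from 0) on the 131 genes in each of the 12 libraries, stacked by the role given in the gene descriptions. The 3 root −N libraries reach 0.88 to 0.949% and the 3 shoot −N libraries 1.41 to 1.54%, above all +N libraries, and proteases and protein degradation form the largest layer in −N.

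The mean −N level was 3.0 to 24.8 times the +N mean in roots (median 4.2) and 3.03 to 38.5 times in shoots (median 4.68). At 10-fold or more stood 17 members in roots, 19 in shoots and 6 in both organs. In 76 members the ratio was larger in shoots and in 55 it was larger in roots. In edgeR fits of each organ, all 131 members passed the filter on low counts and all were called lower in +N in roots and in shoots (adjusted p below 0.015 and at least 2-fold), where 6.38% of 21049 genes tested in roots and 7.62% of 20689 in shoots were called lower, and nothing is read from these counts because the choice of members fixed them. Scaled by total counts, as the choice of members was, the median gene changed by −0.18 in roots and −0.3 in shoots on the log2 scale, against −0.01 and −0.01 with TMM scaling. With TMM the median change of the members was −1.91 in roots and −1.93 in shoots (log2), and only 75 genes would have met the conditions on TMM-scaled CPM, all of them members.

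**Figure D2:**
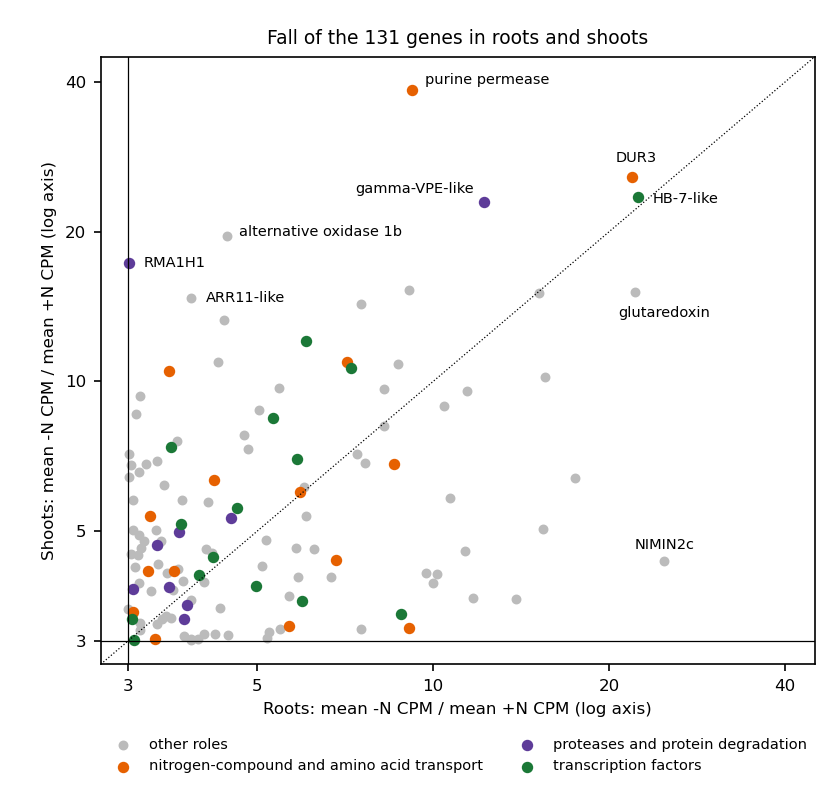
Mean −N CPM divided by mean +N CPM in roots (x, log axis) and in shoots (y, log axis) for each of the 131 genes, with solid lines at the 3-fold bound that chose the genes and a dotted line of equal ratios. DUR3 and the HB-7-like gene lie above 20-fold in both organs, a purine permease reaches 38.5-fold in shoots, and NIMIN2c reaches 24.8-fold in roots.

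The genes nearest to the bound show how it was placed. Just inside were a DETOXIFICATION transporter (Solyc04g076950.3, 3.001-fold in roots and 3.48-fold in shoots), a hAT transposon-like protein (Solyc09g005660.4, 3.01-fold and 6.42-fold) and the ubiquitin ligase RMA1H1 (Solyc10g008410.1, 3.02-fold and 17.3-fold). Just outside were a thionin-like protein (Solyc01g104710.3, 3.61-fold in roots and 2.996-fold in shoots), alanine-glyoxylate aminotransferase 2 (Solyc10g076250.2, 2.99-fold and 4.64-fold) and the Ninja-family protein AFP3 (Solyc04g005380.3, 2.98-fold and 26.6-fold).

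Descriptions were found for all 131 members, and by keywords they placed 12 members in transport of nitrogen compounds, 3 in amino acid transport, 10 in other transport, 15 in transcription, 9 in protein degradation, 10 in signalling, 3 in amino acid and nitrogen metabolism, 15 in redox and secondary metabolism, 15 in carbohydrate and lipid metabolism and 4 in stress proteins, while 35 matched no keyword. The descriptions come from lists of 5108 genes that the study assembled for changes in these same samples, so that shares of called genes among other described genes are above those over all genes.

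Proteases of the vacuole took the most reads, a share that also depends on transcript length, for which no values were used. A vacuolar-processing enzyme (Solyc08g065610.3; Arabidopsis homolog gamma-VPE), a protease that in Arabidopsis matures other vacuolar proteins, was at 871, 823 and 938 CPM in −N and 66, 79 and 70.4 CPM in +N in roots. In shoots it was at 1501, 1218 and 1091 CPM in −N and 51.4, 58.4 and 55.8 CPM in +N. The −N mean was 12.2 times the +N mean in roots and 23 times in shoots, and no −N library came near a +N library. The cysteine protease CYP1 (Solyc12g088670.2; homolog RD21A) was at 1136, 1081 and 1063 CPM in −N and 305, 296 and 292 CPM in +N in roots, and at 2251, 1964 and 1809.9 CPM in −N and 382, 426 and 403 CPM in +N in shoots. A cysteine proteinase like RD19 (Solyc04g080960.4) was at 1292, 1218 and 1169 CPM in −N and 339, 337 and 295 CPM in +N in roots, and at 1774, 1507 and 1487 CPM in −N and 428, 464 and 453 CPM in +N in shoots. Both papain-type proteases, named in Arabidopsis for their rise in drought, were left at 27.2% (CYP1) and 26.4% (RD19-like) of their −N means in roots and at 20.1% and 28.2% in shoots, whereas the vacuolar-processing enzyme was left at 8.18% of its −N mean in roots and 4.35% in shoots. These 3 genes took 34.9% of the reads of all members in root −N and 33.4% in shoot −N.

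The other members of protein degradation had fewer reads. An isoaspartyl peptidase/L-asparaginase (Solyc04g078460.3), an enzyme that frees ammonium from asparagine, was at 153, 142 and 156 CPM in −N and 27.9, 39.5 and 32.6 CPM in +N in roots. Its level was almost the same in shoots, 159 ± 5.54 CPM in −N and 29.9 ± 2.69 CPM in +N (mean ± SD of 3 libraries). The BTB/TAZ protein Solyc06g071820.3 (homolog BT2, an adaptor for ubiquitin ligases) was at 516, 486 and 499 CPM in −N and 123, 132 and 139 CPM in +N in shoots, with only 27, 26.2 and 27.4 CPM in root −N. Among the 252 other described genes of this class, 60 of 183 tested were called lower and 58 higher in roots, and 26 of 169 were called lower and 26 higher in shoots. A count by family was made after the values were seen, and without the members, which had to be lower. In it 7 of 9 tested cysteine proteases were called lower in roots and 2 of 9 in shoots, where 6.38% and 7.62% of all genes tested were. The described genes were listed for changes in these same samples, so the shares over all genes are not a baseline for them. Of 4 described autophagy genes, 1 was called lower in each organ and none was a member. Of 16 genes with senescence in their description, 1 is a member. Of the others, 1 of 13 tested in roots was called lower and 9 higher. In shoots, 1 of 11 was called lower and 4 higher. Over all genes tested, 6.23% were called higher in roots and 13.4% in shoots, which are no baseline either. The match was by that word only, and the paper reports leaf senescence terms enriched among genes lowered in shoots.

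Uptake genes for nitrogen other than nitrate formed the next group. The urea-proton symporter DUR3 (Solyc08g075570.4), the high-affinity route for urea in plants, was at 628, 602 and 628 CPM in −N and 30.8, 25.8 and 28.2 CPM in +N in roots. In shoots it was at 67.9, 67.5 and 66.2 CPM in −N and 2.95, 2.73 and 2.14 CPM in +N, with roots 9.21 times above shoots in −N and 10.8 times in +N. Its ratio of −N to +N was 21.9 in roots and 25.8 in shoots, and the fall did not differ between organs beyond its error (interaction log2 −0.19 (SE 0.129, adjusted p = 0.244)). The ammonium transporter AMT1 (Solyc09g090730.2) was at 287, 278 and 299 CPM in −N and 81, 85.3 and 77.9 CPM in +N in roots and at 124, 136 and 142 CPM in −N and 12.3, 14.8 and 11.3 CPM in +N in shoots. It kept 28.3% of its −N level in roots and 9.54% in shoots, a difference called in the interaction test (log2 −1.52 (SE 0.105, adjusted p = 1.10e-10)). Of 3 ammonium transporter genes tested, AMT1 and Solyc10g076480.2 were called lower in both organs, and Solyc04g050440.3 was called higher, with means of 105 CPM in root −N and 287 CPM in root +N.

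Carriers of nucleic-acid breakdown products were in the set as well. A ureide permease (Solyc01g010290.4; homolog UPS2, which carries allantoin and uracil in Arabidopsis) was at 153, 151 and 139 CPM in −N and 18.5, 17.8 and 15.5 CPM in +N in roots and 113, 116 and 109 CPM in −N and 14.8, 17.9 and 16.7 CPM in +N in shoots. The set holds 3 purine permeases, proteins that carry purine bases and cytokinins, which lie next to one another in the table (Solyc02g071080.3, Solyc02g071090.3 and Solyc02g071100.3). The middle one was at 47.4, 51.4 and 46.4 CPM in −N and 5.77, 5.82 and 4.18 CPM in +N in roots, and at 105, 91.9 and 89.1 CPM in −N and 1.68, 3.77 and 1.98 CPM in +N in shoots, the largest ratio of any member in shoots (38.5). Solyc02g071080.3 averaged 15.4 ± 1.31 CPM in root −N, 2.16 ± 0.57 CPM in root +N, 17.1 ± 1.83 CPM in shoot −N and 1.57 ± 0.45 CPM in shoot +N. Solyc02g071100.3 was mainly a shoot transcript, at 23.6 ± 2.2 CPM in shoot −N and 7.31 ± 0.565 CPM in shoot +N, against 3.2 ± 0.63 and 0.564 ± 0.0133 CPM in roots. The purine permeases on either side missed the bound, with Solyc02g071060.3 at 11.2 CPM in root −N and 4.94 CPM in root +N, and Solyc02g071110.3 at 21.2 CPM in shoot −N and 9.35 CPM in shoot +N. How reads shared by such copies were counted is not given, so the split between neighbours is uncertain.

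Peptide and nitrate carriers made up the rest of this class. An oligopeptide transporter (Solyc08g082990.3; homolog OPT7) was at 69.6, 73.4 and 68.8 CPM in −N and 23.1, 22.5 and 19 CPM in +N in roots and 186, 157 and 155 CPM in −N and 29.8, 33.5 and 29.5 CPM in +N in shoots. The set included 5 genes annotated in the NRT1/PTR (NPF) family, whose proteins carry nitrate, peptides or hormones. NPF 2.9 (Solyc03g113430.3) was at 43.7, 47.6 and 46.3 CPM in −N and 15.7, 14 and 13.3 CPM in +N in shoots and at 4.15, 3.92 and 3.7 CPM in −N and 0.676, 0.22 and 0.401 CPM in +N in roots, so that its level was higher in shoots and its fall was larger in roots (interaction log2 1.51 (SE 0.287, adjusted p = 1.52e-04)). NPF 5.1 (Solyc06g050900.3) had means of 74.2 CPM in shoot −N and 8.23 CPM in root −N. Solyc05g005920.4, Solyc05g005990.3 and Solyc12g095810.2, all annotated in the NPF 1 group, had −N means of 18.1, 21.2 and 6.55 CPM in roots and 57.2, 28.2 and 6.8 CPM in shoots. A further member, Solyc04g005070.3, is described only as a major facilitator and was counted with other transport, but has the same Arabidopsis homolog as these NPF 1 genes, and its means were 18 CPM in root −N, 4.3 CPM in root +N, 54.3 CPM in shoot −N and 12 CPM in shoot +N. Apart from the 5 annotated members, which had to be lower, 13 of 17 tested genes described as NPF were called lower in roots and 1 higher. In shoots 3 of 17 were called lower, and this count was made after the values were seen. Over all genes tested, 6.38% were called lower in roots and 7.62% in shoots. The described genes were listed for changes in these same samples, so these shares are not a baseline for them. Among the 48 other described genes of nitrogen transport, 20 of 39 tested were called lower and 11 higher in roots, and 6 of 37 were called lower and 6 higher in shoots.

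**Figure D3:**
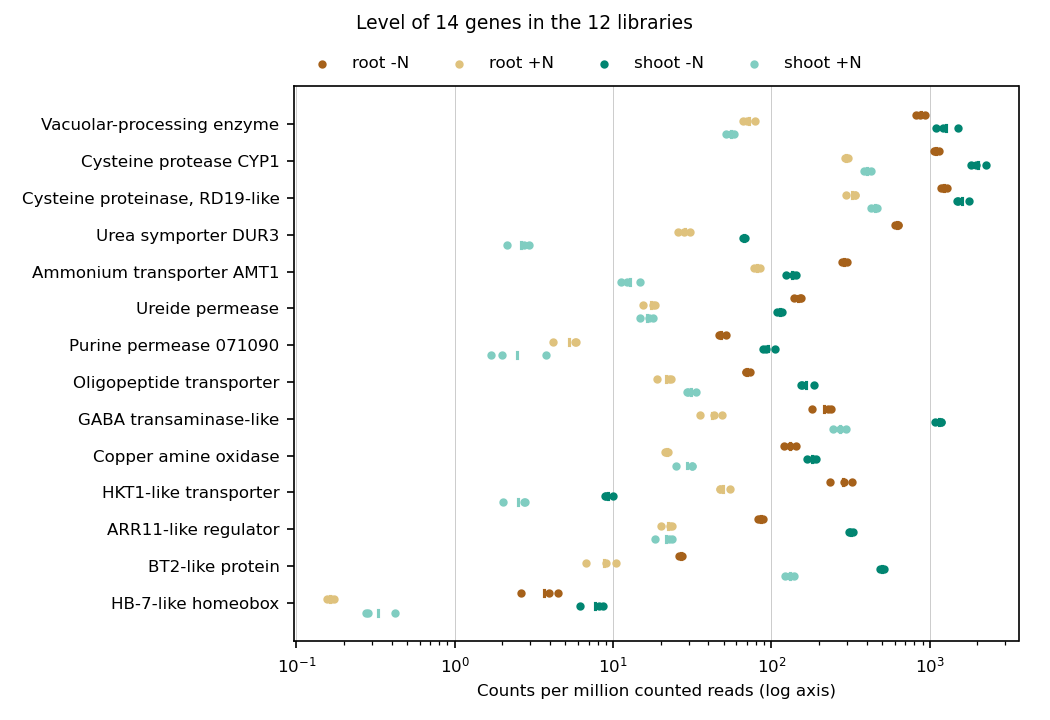
Counts per 1000000 counted reads (log axis) of 14 genes in each of the 12 libraries, as points coloured by group, with a short bar at the mean of each group of 3. In every row the −N points lie above the +N points of the same organ, as the choice of the genes required. The organs lie apart for DUR3, the HKT1-like transporter and the BT2-like protein.

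Amino acids had fewer genes in the set. A cationic amino acid transporter (Solyc02g070280.3; homolog CAT1) was at 51.8, 61.6 and 57.7 CPM in −N and 13.6, 14.4 and 13.2 CPM in +N in shoots and 19.8 ± 0.555 CPM in root −N. Another (Solyc12g011370.3; homolog CAT8) was at 48.7, 41.6 and 38 CPM in −N and 6.89, 6.78 and 7.74 CPM in +N in shoots and 7.93 ± 0.855 CPM in root −N. The third, Solyc03g078150.3, was close in both organs, at 7.86 ± 1.31 CPM in root −N and 5.97 ± 0.668 CPM in shoot −N. Among the 40 other described amino acid transporters, 15 of 35 tested were called lower and 14 higher in roots, and 5 of 27 were called lower and 10 higher in shoots.

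In nitrogen metabolism, the gene with the most reads was Solyc12g006470.2, annotated as a viroid RNA-binding protein with the Arabidopsis homolog POP2, the transaminase that breaks down gamma-aminobutyric acid. It was at 228, 239 and 180.0 CPM in −N and 43.3, 48.5 and 35.4 CPM in +N in roots, and at 1183, 1087 and 1185 CPM in −N and 245, 297 and 271 CPM in +N in shoots. A copper amine oxidase (Solyc08g079430.3), an enzyme that releases ammonium from polyamines, was at 143, 131 and 121 CPM in −N and 21.4, 22.2 and 21.7 CPM in +N in roots and 189.9, 168 and 183 CPM in −N and 25.1, 31.7 and 31.4 CPM in +N in shoots, falling 6.02-fold and 6.13-fold. An S-like ribonuclease (Solyc07g006570.4; homolog RNS3) was at 11.1 ± 0.305 CPM in root −N and 2.11 ± 0.594 CPM in root +N, and at 14.4 ± 1.99 and 4.6 ± 1.61 CPM in shoots. Among the 100 other described genes of the class, 24 of 79 tested were called lower and 23 higher in roots, and 18 of 74 were called lower and 15 higher in shoots.

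Genes for early steps of chlorophyll breakdown were members, although no keyword placed them in a class. Pheophytinase (Solyc01g088090.3), which removes the phytol tail, was at 99.1, 96.8 and 91.4 CPM in −N and 19.5, 21.1 and 20.8 CPM in +N in shoots and at 9.72, 10.4 and 9.87 CPM in −N and 2.76, 2.85 and 3.26 CPM in +N in roots. The green flesh gene (Solyc08g080090.3; homolog NYE1), whose protein acts on the magnesium of chlorophyll, was at 65.5, 64.1 and 53.8 CPM in −N and 11.2, 10.3 and 12.7 CPM in +N in shoots and at 8.07, 7.44 and 6.06 CPM in −N and 0.988, 1.26 and 1.32 CPM in +N in roots. Both were thus present and fell in roots, where the photosynthesis genes summed to at most 75.5 CPM.

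Other transporters included the gene with the largest lead of roots over shoots. The potassium transporter Solyc07g014680.4 (homolog HKT1, which carries sodium in Arabidopsis) was at 324, 289 and 234 CPM in −N and 55, 47.3 and 47.2 CPM in +N in roots and at 8.89, 10 and 9.04 CPM in −N and 2.79, 2.03 and 2.75 CPM in +N in shoots. Opposite to it was a TauE/SafE-family protein (Solyc09g008780.4), with 268, 273 and 262 CPM in −N and 42.9, 36.4 and 36.5 CPM in +N in shoots against 23, 22.7 and 21.4 CPM in root −N. The polyol/monosaccharide transporter Solyc01g109460.3 and the DETOXIFICATION efflux carrier Solyc02g032660.3 were closer between organs, with −N means of 74.6 and 72.7 CPM in roots and 133 and 55.7 CPM in shoots. Among the 219 other described genes of the class, 79 of 186 tested were called lower and 49 higher in roots, and 25 of 154 were called lower and 21 higher in shoots.

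Among transcription factors, the homeobox-leucine zipper gene Solyc01g096320.3 (homolog HB-7, induced by abscisic acid and drought in Arabidopsis) was at 3.92, 4.51 and 2.63 CPM in −N and 0.156, 0.165 and 0.172 CPM in +N in roots, and at 6.17, 8.67 and 8.17 CPM in −N and 0.421, 0.283 and 0.275 CPM in +N in shoots, a ratio above 20 in both organs that rests on less than 1 CPM in +N. Solyc02g062960.4 (homolog HB21) had means of 24.8 ± 3.12 CPM in root −N and 3.35 ± 0.471 CPM in shoot −N, and Solyc02g063520.3 (HAT22) had 2.98 ± 0.28 and 14 ± 1.64 CPM, the reverse order. In a count made after the values were seen, 4 of 10 tested homeobox-leucine zipper genes other than the members were called lower in roots and 5 of 9 in shoots. Over all genes tested the shares were 6.38% and 7.62%, which are no baseline for genes listed for changes in these same samples. A WRKY gene (Solyc08g067340.4; named WRKY46, homolog WRKY40) was at 35.5, 35.4 and 49.6 CPM in −N and 2.39, 7.19 and 7.04 CPM in +N in roots and 12.9, 13.2 and 17.5 CPM in −N and 1.95, 0.942 and 1.21 CPM in +N in shoots. An ethylene-responsive factor (Solyc01g090340.3) had means of 29.2 ± 5.62 and 7.34 ± 1.36 CPM in roots and 44.7 ± 6.42 and 10.9 ± 1.96 CPM in shoots. The MYB-like factor Solyc04g005100.3 was at 32.1 ± 0.647 CPM in root −N, 9.02 ± 0.971 CPM in root +N, 24.5 ± 1.83 CPM in shoot −N and 3.31 ± 0.232 CPM in shoot +N. The GRAS gene GRAS16 (Solyc03g123400.1) was mainly a root transcript, at 31.9 ± 1.11 CPM in root −N and 2.36 ± 0.422 CPM in shoot −N. Among the 386 other described transcription genes, 90 of 314 tested were called lower and 97 higher in roots, and 48 of 284 were called lower and 40 higher in shoots.

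Signalling members included several that fell further in one organ. A two-component response regulator (Solyc05g014260.3; homolog ARR11, a transcriptional regulator of cytokinin responses) was at 88.8, 84.5 and 82.8 CPM in −N and 20.1, 22.8 and 23.5 CPM in +N in roots, and at 316, 308 and 326 CPM in −N and 18.5, 22.5 and 23.4 CPM in +N in shoots. Its organs lay apart in −N and overlapped in +N. An inositol polyphosphate 5-phosphatase (Solyc08g007080.4), an enzyme that removes phosphate from inositol signals, was at 102, 96.3 and 89.1 CPM in −N and 7.28, 9.5 and 7.73 CPM in +N in roots and 112, 120.5 and 127 CPM in −N and 36.4, 28.6 and 32.7 CPM in +N in shoots, overlapping in neither treatment. The beta subunit of the SNF1-related kinase (Solyc07g045460.3), a kinase that responds to low energy, was at 22.7, 20 and 18.1 CPM in −N and 0.676, 1.48 and 1.32 CPM in +N in roots and 34.6, 30.2 and 31.9 CPM in −N and 4.36, 5.23 and 5.49 CPM in +N in shoots. Metabolic kinases and phosphatases that the keywords placed here included pyruvate kinase Solyc06g051930.3 (81.2 CPM in shoot −N and 11.4 CPM in shoot +N), phosphofructokinase Solyc07g045160.3 (39.2 and 8.25 CPM in roots) and trehalose 6-phosphate phosphatase Solyc05g051880.4 (18.8 and 1.64 CPM in roots). A protein kinase (Solyc01g104910.3) and a receptor-like kinase (Solyc10g081910.2) had −N means of 219 and 79.7 CPM in roots. Among the 422 other described signalling genes, 107 of 335 tested were called lower and 101 higher in roots, and 49 of 317 were called lower and 47 higher in shoots.

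In carbohydrate and lipid metabolism, a cellulose synthase-like gene (Solyc07g043390.4; homolog CSLG1) had the most reads, at 396, 389.5 and 310.3 CPM in −N and 119.9, 109 and 111 CPM in +N in roots and 986, 906 and 994 CPM in −N and 118, 163 and 143 CPM in +N in shoots. It was followed by the hydrolases Solyc09g009530.4, Solyc09g010940.4 and Solyc07g042500.4, with −N means of 82.9, 114 and 35.5 CPM in roots and 186, 63.8 and 67.6 CPM in shoots. The large subunit of ADP-glucose pyrophosphorylase (Solyc01g109790.3; homolog APL3), an enzyme of starch synthesis that no keyword placed, was at 367, 350.2 and 413 CPM in −N and 109, 113 and 116 CPM in +N in shoots and 59.3 ± 6.51 CPM in root −N. Among the 377 other described genes of the class, 139 of 312 tested were called lower and 72 higher in roots, and 42 of 277 were called lower and 55 higher in shoots.

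Among redox and secondary metabolism genes, delta(24)-sterol reductase (Solyc02g069490.4; homolog DWF1, of brassinosteroid synthesis) had means of 278 ± 35 and 82.8 ± 6.33 CPM in roots and 393 ± 32.7 and 78.1 ± 9.44 CPM in shoots. The glutaredoxin Solyc11g069940.1 was at 71.9, 63.3 and 59.1 CPM in −N and 2.91, 3.68 and 2.17 CPM in +N in roots, and at 119, 111 and 113 CPM in −N and 8.15, 6.88 and 7.63 CPM in +N in shoots. Another glutaredoxin, Solyc08g062970.1, was at 84.2 ± 7.16 CPM in root −N, 14.3 ± 0.474 CPM in root +N, 42.5 ± 2.21 CPM in shoot −N and 10.5 ± 1.93 CPM in shoot +N. In a count made after the values were seen, 13 of 16 other described glutaredoxins tested in roots were called higher and 1 lower. In shoots 13 of 17 were called higher and 1 lower. Over all genes tested, 6.23% were called higher in roots and 13.4% in shoots. These shares are no baseline for genes listed for changes in these same samples. A glycosyltransferase (Solyc11g066670.1) had −N means of 36.7 CPM in roots and 119 CPM in shoots. Among the 575 other described genes of the class, 197 of 434 tested were called lower and 116 higher in roots, and 73 of 368 were called lower and 74 higher in shoots.

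Stress proteins were few. Jacalin-related lectin 3 (Solyc10g078590.2) had means of 356 ± 9.29 and 77.3 ± 5.74 CPM in shoots, the senescence regulator S40 (Solyc02g032800.1) had 24.7 ± 3.99 and 6.23 ± 0.627 CPM in roots, the dehydrin TAS14 (Solyc02g084850.3) had 20.5 ± 2.59 and 6.53 ± 1.23 CPM in roots, and a disease resistance protein (Solyc12g096920.1) had 26.7 ± 2.28 and 7.92 ± 1.65 CPM in roots. Among the 165 other described genes of the class, 44 of 132 tested were called lower and 46 higher in roots, and 22 of 104 were called lower and 22 higher in shoots.

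The level of the genes in −N was next compared between organs, which asks whether a starvation transcript found in both organs is equally abundant in them. All 12 libraries were fitted together, and shoot minus root was called at an adjusted p below 0.015 and at least 2-fold (edgeR's quasi-likelihood test). In −N, 59 of the 131 members (45%) were called higher in shoots, where 19.8% of the 22483 genes tested were. Higher in roots were 20 members (15.3%), against 18.1% of the genes tested. The median shoot minus root difference was 0.72 on the log2 scale for the members and 0.01 over all genes tested. Genes with at least 2 CPM in −N in both organs, a level that the choice of members required, were called higher in shoots in 15.5% and higher in roots in 10.4%. In +N, 51 members (38.9%) were called higher in shoots and 21 (16%) higher in roots, against 22.8% and 22% of the genes tested and 19.3% and 15.7% of those at that −N level. The median difference in +N was 0.54 (log2) for the members. Among the 75 members that also met the conditions on TMM-scaled CPM, 44% were called higher in shoots in −N and 18.7% higher in roots.

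The organ calls were compared between treatments. In both treatments 45 members were called higher in shoots and 17 higher in roots, and 42 were called in neither treatment. Calls were made in −N but not in +N for 17 members and in +N but not in −N for 10. Without the fold cutoff and at an adjusted p of 0.05, 81 members were higher in shoots in −N and 32 were higher in roots. The counts of this paragraph were not made over all genes tested, so nothing particular to the members is read from them.

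Leading the shoot side in −N were 4 genes of different kinds. A tetratricopeptide repeat protein (Solyc07g008210.4) was at 243, 248 and 226 CPM in shoot −N and 5.17, 6.81 and 4.51 CPM in root −N, with shoot minus root of 5.52 (SE 0.11, adjusted p = 3.26e-21) on the log2 scale. A 2-oxoglutarate-dependent oxygenase (Solyc01g105660.4) was at 102, 109 and 104 CPM in shoots and 1.93, 2.5 and 3.06 CPM in roots (log2 difference 5.48 (SE 0.121, adjusted p = 1.87e-20)). The BT2-like protein differed by 4.31 (SE 0.0775, adjusted p = 6.01e-22). The notabilis gene (Solyc07g056570.1; homolog NCED3, the committed step of abscisic acid synthesis) was at 149, 108 and 98.6 CPM in shoots and 5.97, 6.02 and 8.48 CPM in roots (log2 difference 4.21 (SE 0.15, adjusted p = 9.24e-17)). In +N these 4 genes were also called higher in shoots, by 4.64, 5.65, 4.03 and 3.99 on the log2 scale.

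The root side was led by the HKT1-like transporter, with a shoot minus root difference of −4.83 (SE 0.109, adjusted p = 2.51e-20) on the log2 scale. A glycosyltransferase (Solyc02g088500.1; homolog UGT71B5) was at 75.7, 72 and 66.5 CPM in root −N and 4, 4.01 and 2.88 CPM in shoot −N (log2 difference −4.21 (SE 0.11, adjusted p = 3.29e-19)). A cytochrome P450 (Solyc02g084930.3; homolog CYP722A1) was at 119.7, 116 and 96.2 CPM in roots and 5.68, 6.73 and 6.26 CPM in shoots (log2 difference −4.06 (SE 0.104, adjusted p = 2.38e-19)). A molybdenum cofactor sulfurase-like gene (Solyc05g015480.3) was at 61.8, 51.2 and 49.2 CPM in roots and 3.21, 3.55 and 3.42 CPM in shoots (log2 difference −3.9 (SE 0.124, adjusted p = 1.25e-17)). DUR3 was 9.21 times higher in roots by mean CPM (log2 difference −3.11 (SE 0.0585, adjusted p = 1.22e-21)), so that DUR3 stood with the root-led members, as did AMT1 by a smaller difference, while the GABA transaminase-like gene (log2 difference 2.51 (SE 0.0942, adjusted p = 2.30e-16)) and both chlorophyll breakdown genes (3.35 for pheophytinase and 3.18 for green flesh) stood with the shoot-led ones.

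Counts by role are small. In −N, 45% of all members were called higher in shoots and 15.3% higher in roots, against 19.8% and 18.1% of all genes tested. The counts below are given beside these shares, and no difference between roles is read from them. Of 12 nitrogen-compound transporters, 6 were called higher in shoots and 2 higher in roots in −N. Of 15 carbohydrate and lipid genes, 8 were called higher in shoots. In transcription, 6 of 15 were called higher in shoots and 4 in roots, and in redox and secondary metabolism 7 of 15 and 4. The 3 vacuolar proteases with the most reads were not called, with shoot minus root of 0.62, 0.97 and 0.47 on the log2 scale in −N, each below the 2-fold cutoff, and neither were the L-asparaginase (0.18) and the amine oxidase (0.55). AMT1 was close to the cutoff in −N (log2 difference −1.01 (SE 0.0642, adjusted p = 3.17e-12)) and passed under it at −0.96 without shoot −N replicate 1 and at −0.98 without root −N replicate 3.

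**Figure D4:**
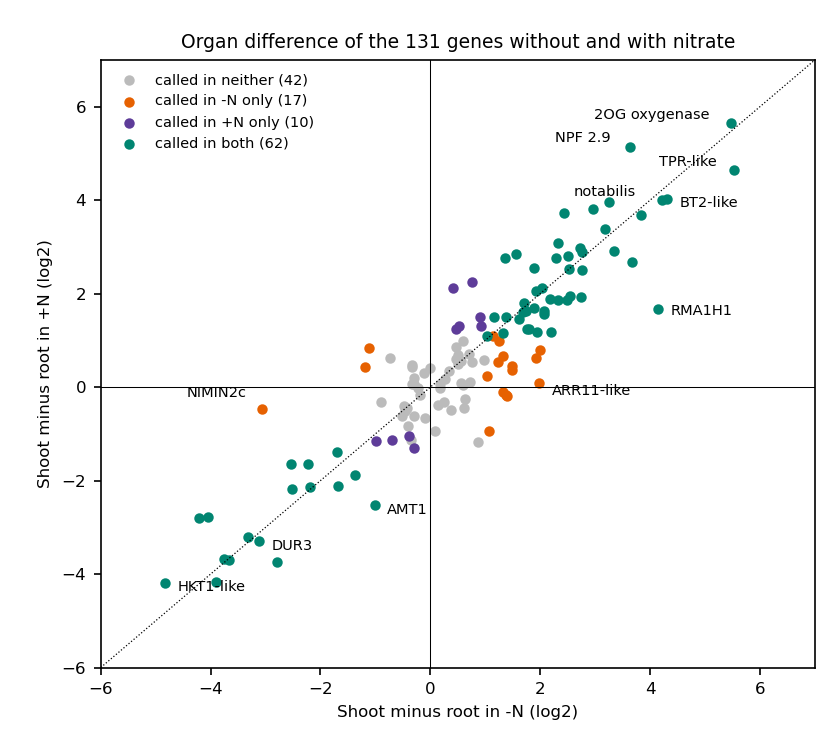
Shoot minus root difference of the 131 genes on the log2 scale in −N (x) and in +N (y), coloured by the treatment in which the difference was called, with a dotted line of equal differences. Most called genes lie near the line in the upper right (45 higher in shoots in both treatments) or lower left (17 higher in roots), whereas the ARR11-like gene and NIMIN2c leave it. Calls in both treatments were not counted over all genes tested, so nothing particular to the members is read from them.

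Whether a gene fell further in one organ was tested as the interaction of N treatment and organ, the log2 change of the shoots less that of the roots, called at an adjusted p below 0.05. The choice of members required the same bound in both organs and so set a least fall in each, but did not compare them. In 34 members (26%) the fall was called larger in shoots and in 26 (19.8%) larger in roots, against 25.5% and 22.9% of the 22483 genes tested with an interaction in those directions. Among the 16627 genes with at least 2 CPM in −N in both organs, the level that the choice required, these shares were 31% and 27.4%. In all, 60 members (45.8%) were called and 71 were not, against 48.4% called among all genes tested and 58.4% among genes at that level. The choice set a least fall in both organs, and 27 members in roots and 19 in shoots had a +N mean below 1 CPM. The other genes were not bounded in this way, so no difference in frequency is read from these shares. The median interaction over the members was −0.09 on the log2 scale, and the median absolute interaction was 0.48, against 0.49 over all genes tested. Called values ran from −2.47 to −0.4 (median −0.94) where shoots fell further and from 0.36 to 2.6 (median 0.83) where roots did.

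The largest fall in shoots relative to roots was that of RMA1H1, a membrane-anchored ubiquitin ligase. It was at 74, 80 and 77.3 CPM in −N and 3.94, 5.28 and 4.12 CPM in +N in shoots and 5.17, 5.04 and 3.65 CPM in −N and 1.4, 1.65 and 1.55 CPM in +N in roots, with an interaction of −2.47 (SE 0.239, adjusted p = 2.09e-08) on the log2 scale. Alternative oxidase 1b (Solyc08g075550.4), of the respiratory bypass in mitochondria, was at 3.75, 3.5 and 4.47 CPM in −N and 0.158, 0.33 and 0.11 CPM in +N in shoots and 2.44, 1.96 and 2.47 CPM in −N and 0.208, 0.769 and 0.572 CPM in +N in roots, with an interaction of −2.03 (SE 0.608, adjusted p = 0.00835). That gene had few reads, and without root +N replicate 2 its interaction was −1.63 (adjusted p = 0.0569). The purine permease Solyc02g071090.3 had an interaction of −2 (SE 0.234, adjusted p = 3.21e-07) and the ARR11-like regulator −1.89 (SE 0.102, adjusted p = 2.74e-12). Both led in shoots in −N, by 1.07 and 1.98 on the log2 scale, and in +N they differed by −0.93 and 0.09, neither called. The lead of the permease in −N was close to the cutoff, and was 0.997 without shoot −N replicate 1.

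The largest fall in roots relative to shoots was that of NIMIN2c (Solyc03g119590.1), of a family that binds the defence regulator NPR1. It was at 13.4, 22.6 and 19.1 CPM in −N and 0.468, 0.549 and 1.2 CPM in +N in roots and 1.73, 2.17 and 2.24 CPM in −N and 0.578, 0.612 and 0.22 CPM in +N in shoots, with an interaction of 2.6 (SE 0.564, adjusted p = 5.88e-04) on the log2 scale. A hypersensitive response assisting protein (Solyc07g006560.3) was at 7.11, 7.49 and 6.6 CPM in −N and 0.52, 0.494 and 0.515 CPM in +N in roots and 3.51, 3.09 and 2.56 CPM in −N and 1.16, 0.801 and 0.549 CPM in +N in shoots (interaction 1.96 (SE 0.406, adjusted p = 3.61e-04)). The inositol polyphosphate 5-phosphatase had an interaction of 1.71 (SE 0.131, adjusted p = 6.14e-10) and the beta subunit of the SNF1-related kinase one of 1.5 (SE 0.244, adjusted p = 2.58e-05). A hydroxyproline-rich glycoprotein (Solyc12g088140.2) was at 5.4, 6.32 and 7.35 CPM in −N and 0.676, 0.329 and 0.229 CPM in +N in roots and 2.57, 2.81 and 2.47 CPM in −N and 0.368, 0.471 and 0.714 CPM in +N in shoots (interaction 1.61 (SE 0.5, adjusted p = 0.0105)), and without shoot +N replicate 3 its value was 1.34 (adjusted p = 0.0599). NIMIN2c, the hypersensitive response assisting protein, the glycoprotein and alternative oxidase 1b all had +N means below 1 CPM in both organs, so that few reads stand behind the size of their differences.

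**Figure D5:**
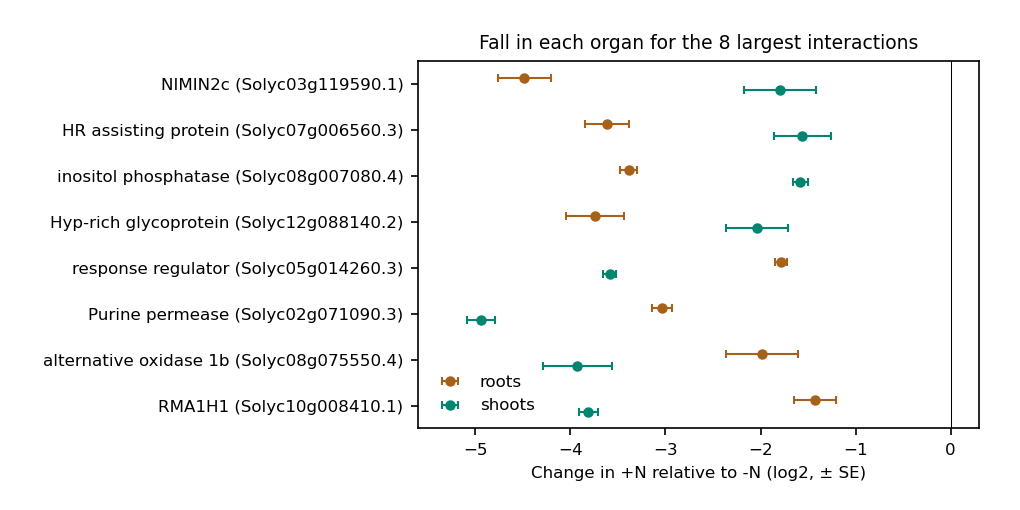
Change in +N relative to −N on the log2 scale in roots and in shoots, fitted in each organ apart, with bars of 1 standard error (n = 3 libraries in each group), for the 8 genes with the largest called interactions. The upper 4 genes fell further in roots and the lower 4 further in shoots, and the interactions run from −2.47 to 2.6.

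Among the genes with the most reads, the vacuolar-processing enzyme fell further in shoots (interaction −0.87 (SE 0.126, adjusted p = 5.70e-06)), as did CYP1 (−0.4) and the cellulose synthase-like gene (−1.04). The RD19-like proteinase (0.14), DUR3 (−0.19), the L-asparaginase (−0.19), the amine oxidase (0.01) and the GABA transaminase-like gene (0.3) were not called.

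Some members are neighbours in the order of the identifiers, which number genes along each chromosome. The table places 6 pairs of members directly next to each other, among them the purine permeases, an NPF 1 gene beside a glycosyltransferase (Solyc05g005920.4 and Solyc05g005930.3), and the hypersensitive response assisting protein beside the S-like ribonuclease. DUR3 and alternative oxidase 1b have 1 gene between them. The interactions of DUR3 and alternative oxidase 1b were −0.19 and −2.03. The latter rests on few reads, and without root +N replicate 2 the interaction test no longer called it (adjusted p = 0.0569). By chromosome, members made up between 0.261% (chromosome 11, 3 genes) and 1.4% (chromosome 8, 17 genes) of the genes with at least 2 CPM in −N in both organs.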

How the data were processed

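The deposited table holds raw read counts per gene for 34075 genes and 12 libraries, and 0 of its sample columns were left out. To make it the authors used Cutadapt for trimming, Tophat2 for mapping (tomato genome build 4.0) and htseq-count for counting. Which tool versions and strand setting they used, and what became of reads that fit several genes, is not given in the sources used here, which leaves near-identical copies and overlapping genes uncertain. The ChIP-Seq libraries were not used here.

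CPM was the count times 1000000 divided by the library total. Tests used edgeR 4.0.16 in R 4.3.3 (TMM, filterByExpr at min.count 10 and min.total.count 15, glmQLFit, glmQLFTest) with Benjamini-Hochberg adjustment over all genes tested. Changes with nitrate were fitted in each organ, organ differences and the interaction in all 12 libraries, where 131 members were tested. DESeq2 1.42.0 was an alternative. The p-values measure the spread between pools of 4 plants.

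Members and gene lists were chosen with earlier results of these data known. Genes named are the 5 members highest in −N and the 5 with the largest falls in each organ, the 4 largest called organ differences in −N and interactions in each direction, the 4 members with most reads of each role, and the 3 nearest each side of the bound. Another 18, and counts by family, were picked after their values were seen: the NPF genes, Solyc04g005070.3, purine permeases Solyc02g071080.3 and Solyc02g071100.3, L-asparaginase, pheophytinase, green flesh, Solyc02g062960.4, Solyc02g063520.3, GRAS16, the metabolic kinases and phosphatase, and ADP-glucose pyrophosphorylase. The non-members Solyc02g071060.3, Solyc02g071110.3, Solyc10g076480.2 and Solyc04g050440.3 were named as relatives of members, outside both lists. Scripts were tested on simulated data.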

Additional observations from a re-analysis of the deposited data

Results flagged for a closer look

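The change after nitrate differed between roots and shoots, by the N by organ interaction of edgeR's quasi-likelihood test at an adjusted p below 0.05, for 40 of the genes named in the text. The values are the log2 change in shoots minus that in roots, relative to 3 libraries in each group. At −1 or beyond, where the fall was larger in shoots, they were −2.47 for Solyc10g008410.1, −2.03 for Solyc08g075550.4, −2.0 for Solyc02g071090.3, −1.89 for Solyc05g014260.3, −1.52 for Solyc09g090730.2, −1.2 for Solyc06g051930.3, −1.04 for Solyc07g043390.4, −1.04 for Solyc09g005660.4, −1.02 for Solyc02g084850.3, −1.01 for Solyc04g005100.3 and −1.0 for Solyc09g008780.4. Smaller differences in that direction were −0.88 for Solyc07g008210.4, −0.87 for Solyc08g065610.3, −0.79 for Solyc07g042500.4, −0.67 for Solyc08g082990.3, −0.66 for Solyc07g045160.3, −0.54 for Solyc11g066670.1, −0.54 for Solyc02g069490.4, −0.43 for Solyc01g088090.3, −0.42 for Solyc10g081910.2 and −0.4 for Solyc12g088670.2.

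Where the fall was larger in roots, values of 1 or more were 2.6 for Solyc03g119590.1, 1.96 for Solyc07g006560.3, 1.71 for Solyc08g007080.4, 1.61 for Solyc12g088140.2, 1.51 for Solyc03g113430.3, 1.5 for Solyc07g045460.3, 1.4 for Solyc02g088500.1, 1.35 for Solyc09g010940.4 and 1.28 for Solyc02g084930.3. Smaller ones were 0.85 for Solyc02g071100.3, 0.78 for Solyc07g006570.4, 0.64 for Solyc07g014680.4, 0.58 for Solyc11g069940.1, 0.58 for Solyc08g062970.1, 0.49 for Solyc02g032660.3, 0.48 for Solyc10g078590.2, 0.43 for Solyc01g104910.3, 0.39 for Solyc01g109460.3 and 0.36 for Solyc01g010290.4. Across all 22483 genes tested, 48.4% had a called interaction, and among the 16627 genes with at least 2 CPM in −N in both organs 58.4% had one, so that a difference of this kind was common in these libraries.

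Some of these calls rest on single libraries. That of the tetratricopeptide repeat gene Solyc07g008210.4 was −0.24 (adjusted p = 0.677) without root +N replicate 2, which held 1.26 CPM of its transcript against 0.416 and 0.515 CPM in the other root +N libraries, and it was also lost without root −N replicate 3 and with DESeq2 size factors. That of the ribonuclease Solyc07g006570.4 was lost on leaving out any of 7 libraries, with adjusted p up to 0.131. Leaving out 1 library also ended the call for Solyc02g071100.3 (2 libraries, adjusted p up to 0.0554), Solyc07g014680.4 (2 libraries, up to 0.0803), Solyc01g088090.3 (1 library, 0.0697), Solyc11g069940.1 (1 library, 0.0522), Solyc08g075550.4 (1 library, 0.0569) and Solyc12g088140.2 (1 library, 0.0599). DESeq2 did not call Solyc01g088090.3 (adjusted p = 0.0707).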

How the results depend on the processing

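The number of members depended on the conditions that chose them. It was 617 at a 2-fold bound, 53 at 4-fold, 75 on TMM-scaled CPM and 73 with DESeq2 size factors within organs, and these 53, 75 and 73 genes were all among the 131. Scaling enters because TMM factors were 1.05 to 1.07 in root −N, 0.942 to 0.948 in root +N, 1.11 in shoot −N and 0.90 to 0.905 in shoot +N. Leaving out 1 library gave 119 to 139 members. At an adjusted p of 0.05 with no fold cutoff, the members higher in roots in −N numbered 32, where 81 were higher in shoots. Shares over all genes were not counted at that cutoff. The other counts stayed within 1.5 times: over the alternatives, members higher in shoots in −N numbered 56 to 81, those with a larger fall in shoots 31 to 37 and those with a larger fall in roots 21 to 32. Leaving out 1 library gave 56 to 60 members higher in shoots and 19 to 21 higher in roots in −N, 51 to 53 and 19 to 23 in +N, 130 or 131 called lower in roots, and larger falls in 32 to 37 (shoots) and 21 to 30 (roots). Against a 2-fold change (glmTreat), 113 members were called lower in roots and 113 in shoots. Of 124 called organ differences and interactions of the named genes, 109 were called under every alternative and 15 were lost under at least 1. In a fit of the 6 +N libraries alone, 126 members passed the filter.

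Whether same-numbered libraries share plants is not given in the labels. Their deviations from the group means correlated at −0.032 to 0.051 over 12 pairs, which cannot settle it with 3 libraries in each group. With the replicate number as a block, the counts were 59 and 20 in −N, 51 and 21 in +N, and 34 and 26 for the interaction, with no call changed. The members left at under 1 CPM limit what their interactions show.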
